A study of Homo sapiens with 17 samples.

Results

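RNA polymerase III needs a small set of initiation factors to find its promoters, and the mRNAs of 10 of them were followed here through 1 h of emetine treatment. TFIIIB, the factor that recruits the polymerase, holds *BDP1*, the TATA-binding protein *TBP* and either *BRF1*, at tRNA and ribosomal RNA promoters inside the gene, or *BRF2*, at the upstream promoters of small nuclear RNA genes. SNAPc, built from *SNAPC1* to *SNAPC5*, binds those upstream promoters, and *MAF1* is the conserved repressor of RNA polymerase III. The 10 genes were taken by symbol, and all 10 were found among the 19222 genes of the 1 h count table. *BRF2*, and with it the set, was chosen by its measured level and fraction new in these libraries, so its difference with emetine at 1 h is given as a description and without a test.

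The cells were wild-type HEK-293T, a line derived from human embryonic kidney. Emetine, a plant alkaloid, stops ribosomes from moving along mRNA. In the 1 h experiment, 3 untreated libraries and 3 libraries from cells with 1.8 µM emetine were labeled with 500 µM 4-thiouridine (s4U) for the same hour, and 1 untreated and 1 emetine library received no s4U. In the TimeLapse chemistry (TL-seq), s4U in RNA made during the hour is read as a T-to-C conversion. A second experiment of 9 libraries, with 250 µM s4U and 2 h without emetine or with 1.8 or 240 µM emetine, is used only through 1 pooled mean per gene. Labels do not say whether replicates came from separate cultures, so p-values measure only the spread between these samples. The 8 libraries of the 1 h experiment held 22246279 to 40018063 reads given to genes. Each member had between 139 and 7168 reads per library, so all 10 passed the filters for level (more than 100 reads in total) and for the fraction new (100 or more reads in every s4U library). All 6 genes listed as markers of HEK-293 lines were above 1 CPM (counts scaled to TMM-normalized library size) in all 8 libraries, whereas of 6 markers of blood, endothelial, liver and connective tissue cells only *COL1A1* was. No reads were listed for *PTPRC* and *HBB*. In the libraries with s4U, the summed level of the second list was 22.5 to 28.4 CPM without and 19.7 to 25.7 CPM with emetine. That of the HEK-293 list was 929.6 to 1051 CPM without and 782 to 928 CPM with emetine, lower in every emetine library, and its part in the results was not tested. Emetine replicate 3 stood apart: its genes deviated from their group mean with an SD of 0.27 on the log2 scale, against 0.12 to 0.17 in the other 5 libraries with s4U. Calls that changed without it are given both ways.

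Short-lived mRNAs often carry AU-rich elements in their 3′ UTR, which recruit decay factors, and the canonical transcripts of the members (GENCODE 44, GRCh38) were searched for the core TATTTAT on the transcript strand. It was present in the 3′ UTRs of *BDP1* (4 copies), *SNAPC3* (2 copies), *TBP* and *SNAPC1* (1 copy each), and in 36.7% of the 3′ UTRs of 12068 genes, whatever their length. No copy was found in the 3′ UTRs of *BRF2*, *SNAPC4*, *BRF1*, *MAF1*, *SNAPC2* or *SNAPC5*. One window is shown for each gene that holds the core, with the match in capitals, because these 4 genes include both the slowest and some of the faster turning members described below.
BDP1 (chr5:71565876-71565896, plus strand): acataatTATTTATaaagatg
TBP (chr6:170572515-170572535, plus strand): gcccattTATTTATatgtaga
SNAPC1 (chr14:61795408-61795428, plus strand): ttttgtaTATTTATtctattt
SNAPC3 (chr9:15460052-15460072, plus strand): aattttaTATTTATtccagat
A match describes these letters and is not evidence of binding.

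The members lie on 7 chromosomes, and their mRNAs differ widely in length. *BRF2* (chromosome 8, 37843268 to 37849861, minus strand) has a canonical transcript of 2560 nt, with a coding sequence of 1260 nt and a 3′ UTR of 1222 nt. Its exons share 1629 of 2717 bases with *ADGRA2* on the opposite strand. The 1 h libraries were made with a stranded mRNA kit, and no read was given jointly to *BRF2* and another gene. The strand setting used in counting is not given in the sources used here, so reads over those bases cannot be assigned with certainty. *ADGRA2* itself had a log2 fold change of 0.15 with emetine (SE 0.11, adjusted p = 0.411, edgeR). *SNAPC4* (chromosome 9, 136375567 to 136400176, minus strand), the largest SNAPc subunit and the one that contacts DNA through Myb repeats, has a coding sequence of 4410 nt and a 3′ UTR of only 237 nt. *BDP1* (chromosome 5, 71455651 to 71567820, plus strand) has the longest transcript of the set, at 11037 nt, and *SNAPC5* (chromosome 15, 66490135 to 66497780, minus strand) the shortest, at 1296 nt. Smaller overlaps with a gene on the opposite strand were found for *BRF1*, *MAF1*, *SNAPC3* and *SNAPC5* (40 to 635 exonic bases each). *SNAPC1* (565 of 2593 exonic bases) and *SNAPC5* (583 of 2476) also overlap a gene on the same strand. Those genes have no counts of their own in the 1 h data, and their part in the reads of *SNAPC1* and *SNAPC5* was not tested.

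In untreated cells, *MAF1* was the most abundant of the 10 mRNAs per length and *BDP1* the least. Levels per kb of canonical transcript were 114 ± 4.22 CPM for *MAF1* (SD, n = 3 here and for every group value below), 24.7 ± 1.22 for *TBP* and 16.1 ± 1.69 for *BRF1*. *SNAPC2* (13.5 ± 0.972) and *SNAPC4* (12.5 ± 0.577) overlapped between libraries, and all other neighbors in the order were separate. *SNAPC3* (8.70 ± 0.0336), *BRF2* (7.15 ± 0.471), *SNAPC5* (5.23 ± 0.324), *SNAPC1* (3.86 ± 0.155) and *BDP1* (2.60 ± 0.220) followed. Of the 2 subunits shared by both forms of TFIIIB, *TBP* was thus above the 2 BRF factors and *BDP1* below them, and *BRF1* was above *BRF2* in all 3 libraries.

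The fraction new is the estimated share of a gene's reads that came from RNA made during the hour. In untreated cells, *BRF2* had by far the highest value of the set. It was 57.6%, 73.9% and 71.3% in replicates 1, 2 and 3, higher than in 98.4% of the 10763 genes measured. If levels were steady and labeling began at once, these values correspond to half-lives of 48.4, 31.0 and 33.3 min. No other member came near it. *SNAPC1* followed with 31.7 ± 8.31%, *BDP1* with 27.9 ± 5.59% and *SNAPC5* with 24.0 ± 5.00%. *SNAPC2* (21.7 ± 0.487%), *TBP* (20.3 ± 6.62%), *SNAPC4* (20.1 ± 5.48%) and *BRF1* (15.8 ± 4.17%) were next. *MAF1* (10.0 ± 2.32%) and *SNAPC3* (7.50 ± 1.39%) were the lowest, and their half-lives under the same assumptions were 409 ± 88.2 and 548 ± 114 min. Only *BRF2* was separate from its neighbor in this order, since all others overlapped between libraries. Part of the spread was shared by all genes: the median fraction new of a library was 9.26%, 12.3% and 14.7% in untreated replicates 1, 2 and 3, and 10.3% to 11.0% in the emetine libraries. Without s4U, at most 0.301% of a member's reads had 2 or more conversions, against 47.8%, 61.7% and 56.8% of the *BRF2* reads in the untreated libraries with s4U.

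*BRF2* mRNA was more abundant in every emetine library than in any untreated one. Its level was 16.9, 19.0 and 18.9 CPM in the 3 untreated libraries and 39.4, 41.3 and 34.8 CPM in the 3 emetine libraries. The fitted ratio was 2.09-fold (log2 fold change 1.06), and 1.14 on the log2 scale without emetine replicate 3. Over the same hour the fraction new of *BRF2* was lower, at 35.8%, 36.1% and 33.5% with emetine, a difference of −1.37 in logit units (the log odds of a read being new). The untreated and the emetine libraries did not overlap in either measure. In such bulk libraries, more expressing cells and more RNA per cell cannot be told apart.

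The split of these reads shows where the *BRF2* difference lay. Labeled reads, the level times the fraction new, were 9.74, 14.1 and 13.5 CPM in untreated cells and 14.1, 14.9 and 11.6 CPM with emetine. These ranges overlap, and the log2 difference was 0.13. Unlabeled reads, the rest of the level, were 7.16, 4.97 and 5.44 CPM in untreated cells and 25.3, 26.4 and 23.1 CPM with emetine. This was 4.04-fold on the log2(CPM + 0.5) scale (log2 difference 2.01), with every emetine library above every untreated one. With emetine the unlabeled reads alone exceeded the whole level of the untreated s4U libraries (16.9 to 19.0 CPM). On this scale they cannot all be RNA present before s4U was added, and the reason was not tested. On the stricter count of reads with at least 2 conversions as labeled, the log2 difference of the unlabeled reads was 1.72.

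**Figure D1:**
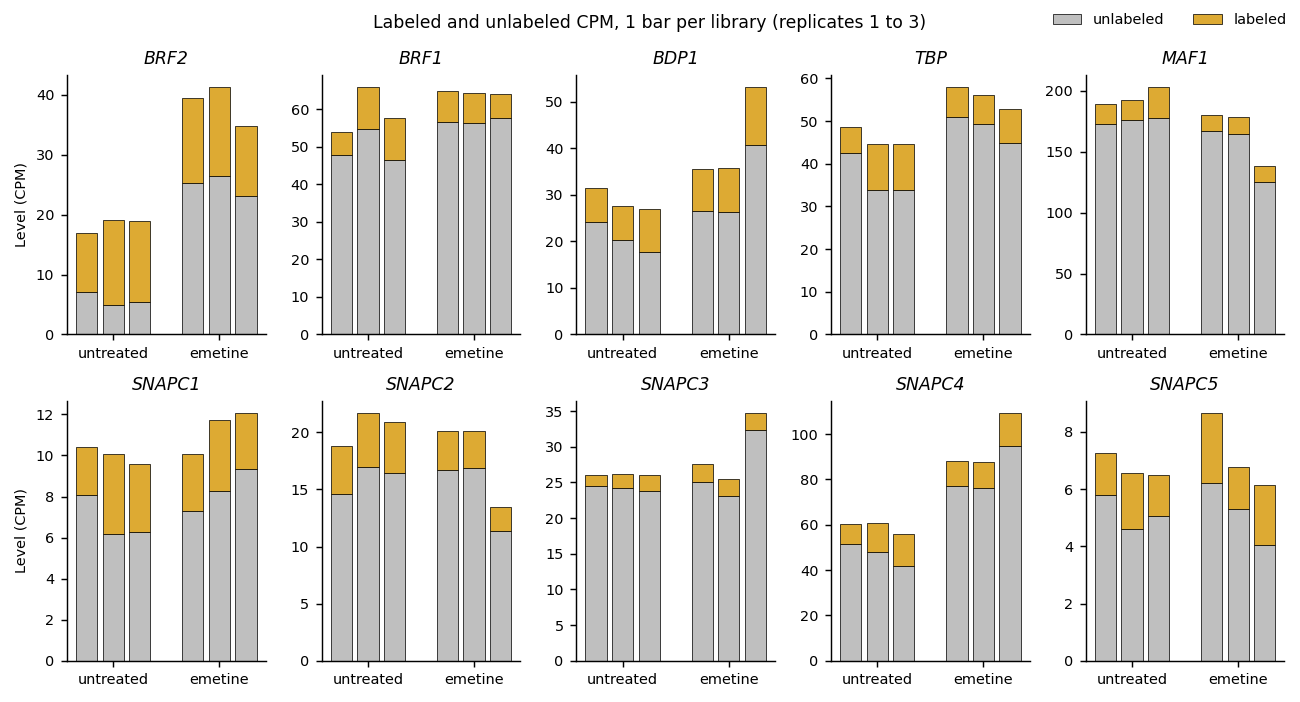
Labeled (yellow) and unlabeled (grey) reads in CPM for each member, with 1 stacked bar per s4U library in replicate order and a scale of its own for each gene. The *BRF2* bars gain in grey with emetine, from 4.97–7.16 to 23.1–26.4 CPM, while their yellow part stays between 9.74 and 14.9 CPM in all 6 libraries.

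Of the other 9 members, *SNAPC4* alone passed the test of level. Its reads rose from 60.2, 60.7 and 55.8 CPM in the untreated libraries to 88.3, 87.7 and 109 CPM with emetine. The emetine libraries all lay above the untreated ones, and replicate 3 was the highest of them. The log2 fold change was 0.67, or 1.60-fold (SE 0.10, adjusted p = 0.0156, edgeR's quasi-likelihood test with Benjamini-Hochberg adjustment over 13776 genes). Without emetine replicate 3 it was 0.57 (adjusted p = 4.2e-05). The call was lost when untreated replicate 1, 2 or 3 was left out, with log2 fold changes of 0.69, 0.69 and 0.64 and adjusted p-values of 0.110, 0.111 and 0.105 (edgeR). In those fits 4, 5 and 18 of all genes were called higher. It was also lost under scaling to spike-in reads (1.36, adjusted p = 0.139, edgeR). DESeq2's Wald test called *SNAPC4* alone of the 9, beside 5.95% of all genes higher and 1.13% lower. By edgeR with all 6 libraries, 2.64% of all genes tested were called higher and 0.0436% lower, against 1 and 0 of the 9 members. At an unadjusted p-value under 0.05 in that test, 3 of the 9 passed, all with positive estimates. The share of all genes passing an unadjusted p-value was not counted, here and for the similar counts below.

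*TBP* and *BDP1*, the subunits that BRF1- and BRF2-containing TFIIIB share, were higher in all 3 emetine libraries than in any untreated one, but did not pass the adjusted threshold. *TBP* had 48.6, 44.7 and 44.6 CPM without and 58.0, 56.2 and 52.8 CPM with emetine (log2 fold change 0.26, SE 0.090, adjusted p = 0.165, edgeR). *BDP1* had 31.4, 27.6 and 26.9 CPM without and 35.5, 35.7 and 53.2 CPM with emetine (0.51, SE 0.16, adjusted p = 0.138, edgeR). Emetine replicate 3 set much of the *BDP1* value. In that library 26.0% of the *BDP1* reads were marked as crossing a splice junction, against 6.81% to 11.7% in the other 7, and the part of this in the level was not tested. Without that library both were called, at a log2 fold change of 0.31 each (adjusted p = 0.00782 for *TBP* and 0.0246 for *BDP1*, edgeR), and 3 of the 9 members were then called higher, as were 10.1% of all genes. *SNAPC4*, *TBP* and *BDP1* were the 3 of 9 members whose emetine libraries all lay above the untreated ones, a pattern held by 20.5% of all genes tested.

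*MAF1* was the single member whose emetine libraries all lay below the untreated ones, as they did for 14.0% of genes. Its levels were 189.6, 192 and 203 CPM without and 180, 179 and 138 CPM with emetine, where replicate 3 was again the most distant. The log2 fold change was −0.25 (SE 0.12, adjusted p = 0.252, edgeR), and −0.12 without that replicate. *BRF1*, the counterpart of *BRF2*, had 53.9, 66.0 and 57.6 CPM without and 64.9, 64.5 and 64.2 CPM with emetine, with a log2 fold change of 0.11 (SE 0.094, adjusted p = 0.489, edgeR). The remaining SNAPc subunits overlapped between the groups. Their log2 fold changes were 0.16 for *SNAPC1*, −0.20 for *SNAPC2*, 0.15 for *SNAPC3* and 0.07 for *SNAPC5*, with adjusted p-values of 0.456 to 0.811 (edgeR). Without emetine replicate 3 they were 0.12, −0.030, 0.020 and 0.18. The median over the 9 members was 0.15, beside 0.030 over all genes tested, and 0.12 beside 0.0093 without that replicate. Spike-in reads made up 0.667%, 0.480% and 0.728% of the untreated libraries with s4U (mean 0.625%). They made up 0.304%, 0.666% and 0.408% of the emetine libraries with s4U (mean 0.460%), so the groups overlapped. Without s4U the shares were 0.501% in the untreated and 0.580% in the emetine library. Scaling to spike-in reads moved the median of all genes to 0.71. The estimates of *MAF1* and *SNAPC2* became 0.43 and 0.45, still below that median.

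**Figure D2:**
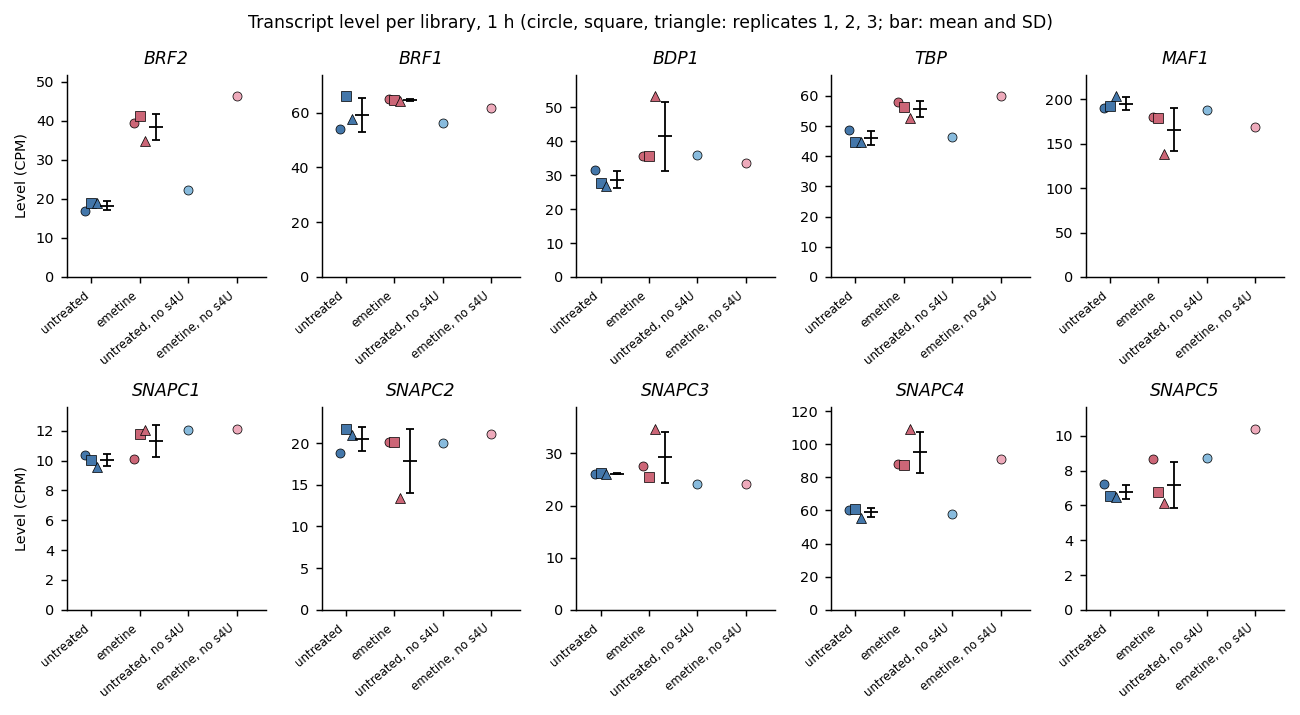
Level in CPM of each member in the 8 libraries of the 1 h experiment, with mean and SD beside each group of 3 and a y axis of its own, from 0, for each gene. The emetine libraries of *BRF2* (34.8 to 46.3 CPM) and *SNAPC4* (87.7 to 109 CPM) lie above all their untreated libraries, with and without s4U, while those of *BRF1* fall within the untreated range.

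In unlabeled reads, *SNAPC4* was again the single member called. Unlabeled *SNAPC4* reads were 51.7, 47.9 and 41.8 CPM in untreated cells and 77.1, 76.2 and 94.6 CPM with emetine, with no overlap. The log2 difference was 0.80 (SE 0.12, adjusted p = 0.00551, limma on log2(CPM + 0.5)), and 0.70 without emetine replicate 3 (adjusted p = 0.000178). Among all genes 7.76% were called higher and 0.0836% lower in this measure, against 1 and 0 of the 9. *TBP* reached 0.40 (SE 0.12, adjusted p = 0.0831, limma) and passed only without emetine replicate 3, at 0.45 (adjusted p = 0.00885, limma), where 13.9% of all genes were called higher. For *BDP1* the difference was 0.56 (SE 0.19, adjusted p = 0.112, limma), and 0.36 without that replicate (adjusted p = 0.0600).

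Labeled reads of the 9 members gave no call with limma, where 0.26% of all genes were higher and 0.548% lower. For *SNAPC4* they were 8.55, 12.8 and 14.0 CPM without and 11.2, 11.5 and 14.6 CPM with emetine, ranges that overlap (log2 difference 0.10, SE 0.24, adjusted p = 0.932). At an unadjusted p-value under 0.05, 2 members passed, and both estimates were negative. These were *MAF1*, at −0.50 (SE 0.23, adjusted p = 0.370, limma), and *SNAPC2*, at −0.57 (SE 0.27, adjusted p = 0.382, limma).

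The fraction new of the 9 members also gave no call with limma, while 4.83% of all genes were lower and 0.214% higher. *SNAPC4* had 14.2%, 21.1% and 25.0% new reads without and 12.7%, 13.2% and 13.4% with emetine, and these did not overlap. Its difference was −0.49 in logit (SE 0.21, adjusted p = 0.196, limma). *TBP* had 12.6%, 24.0% and 24.2% without and 12.2%, 12.2% and 15.0% with emetine, a difference of −0.48 (SE 0.22, adjusted p = 0.214, limma). Untreated replicate 1 was the low library for both genes, as it was for the median of all genes. Without it, *SNAPC4* (−0.69, adjusted p = 0.00896), *TBP* (−0.75, adjusted p = 0.00776) and *BRF1* (−0.52, adjusted p = 0.0336) were all called lower by limma. The share of all genes called lower rose with them, to 2522 of 10775 (23.4%). With every library centred on its median logit, *SNAPC4* alone was lower (−0.36, adjusted p = 0.0489, limma). At an unadjusted p-value under 0.05 with all 6 libraries, *SNAPC4* and *TBP* passed.

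*SNAPC2* was the other member with no overlap in fraction new: 22.2%, 21.8% and 21.2% without and 16.9%, 16.0% and 15.4% with emetine (−0.37, SE 0.21, adjusted p = 0.378, limma). Thus 2 of 9 members were below in all emetine libraries, as were 16.8% of all genes, and none was above, as were 2.19% of all genes. *SNAPC3* and *SNAPC5* were the 2 members with positive estimates, 0.11 and 0.21 (adjusted p = 0.880 and 0.728, limma). The median over the 9 members was −0.24, beside −0.16 over all genes tested.

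**Figure D3:**
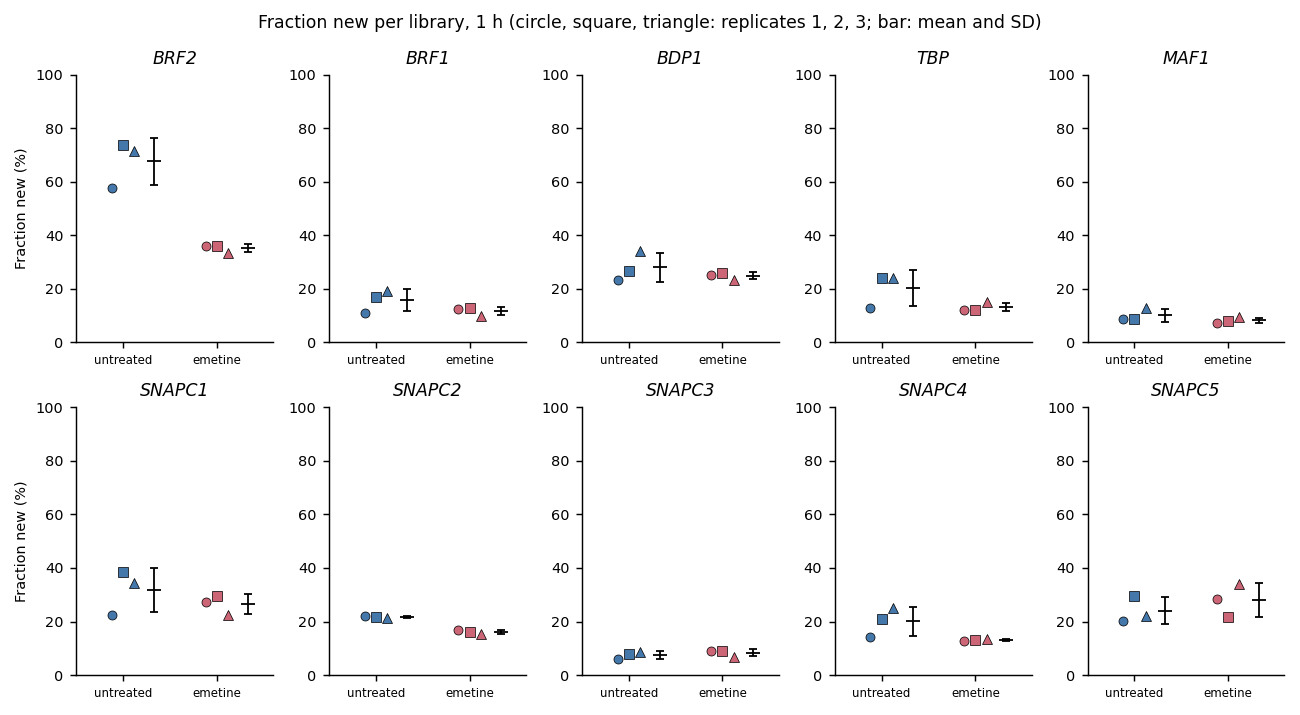
Fraction new in percent for each member in the 6 s4U libraries, on one scale from 0 to 100%, with mean and SD beside each group of 3. *BRF2* lies at 57.6% to 73.9% in untreated and 33.5% to 36.1% in emetine-treated cells, and the highest value of any other member is 38.4%, for *SNAPC1*.

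**Figure D4:**
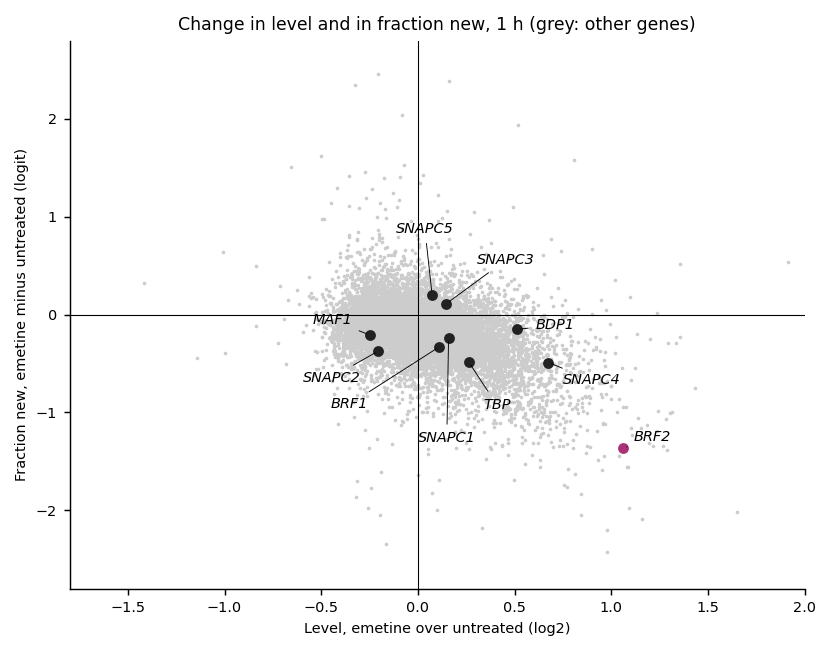
Change in level (log2, x axis) against change in fraction new (logit, y axis) for 10763 genes in grey, with the 10 members labeled and 4 genes outside the axes. *BRF2* (1.06, −1.37) lies at the lower right, far from the other members, and *SNAPC4* (0.67, −0.49) is the next along the x axis.

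The pair of libraries without s4U was not used in the fits of level above and has 1 library per treatment, so its intervals (95%, exact) cover counting error only. *BRF2* had 22.3 CPM (528 reads) without and 46.3 CPM (1480 reads) with emetine, a log2 ratio of 1.06, given without an interval. *SNAPC4* had 57.6 and 91.2 CPM (0.66, interval 0.57 to 0.76), and *TBP* 46.5 and 59.9 CPM (0.37, interval 0.26 to 0.47). *BDP1* did not show the higher level seen with s4U: it had 35.9 CPM without and 33.6 CPM with emetine (−0.10, interval −0.23 to 0.03). For *MAF1* the log2 ratio was −0.16 (−0.21 to −0.10), and for *BRF1* 0.14 (0.03 to 0.24). The intervals of *SNAPC1*, *SNAPC2*, *SNAPC3* and *SNAPC5* included 0. Of 12385 genes with more than 100 reads in this pair, 6.10% had a log2 ratio above 0.5, and the median was −0.00074.

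s4U itself could alter transcript levels, so libraries with and without it were compared with emetine as a covariate. No member was called by edgeR or by DESeq2, and neither was any of 14102 genes by edgeR (0%). At an unadjusted p-value under 0.05, *SNAPC5* (log2 difference −0.46, SE 0.15, adjusted p = 0.895, edgeR) and *BRF2* (−0.28, SE 0.10, adjusted p = 0.895, edgeR) were lower with s4U. Both *BRF2* libraries without s4U lay above the 3 libraries with s4U of the same treatment, and how many of all genes did so was not counted.

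The rest of the RNA polymerase III machinery was read from lists of related genes. None of the 18 polymerase subunits was called for level by edgeR, although 6 had an unadjusted p-value under 0.05, and 7 estimates were positive and 11 negative. Their median log2 fold change was −0.18, which became 0.50 under spike-in scaling, again below the median of all genes there. Without emetine replicate 3 the median was −0.05, with *POLR3A*, *POLR3F* and *CRCP* called higher and *POLR2E* and *POLR2L* lower, beside 10.1% and 3.87% of all genes. DESeq2's Wald test with all libraries called *CRCP* higher and *POLR2E* lower, beside 5.95% and 1.13% of all genes. *CRCP*, a subunit of the polymerase stalk, was higher in unlabeled reads: 23.1, 24.5 and 25.1 CPM without and 33.1, 32.9 and 44.3 CPM with emetine (log2 difference 0.58, adjusted p = 0.0349, limma). It was 0.44 without emetine replicate 3 (adjusted p = 0.00587), and not called without untreated replicate 1, 2 or 3 (0.54 to 0.60, adjusted p = 0.108 to 0.139). *POLR2L*, a small subunit that all nuclear polymerases share, was lower in labeled reads, with 9.03, 14.4 and 18.4 CPM without and 7.02, 7.97 and 6.17 CPM with emetine (−0.89, adjusted p = 0.0410, limma). That call held without untreated replicate 1 and was lost without any one of the other 5 libraries (−0.97 to −0.67, adjusted p = 0.171 at the lowest). TFIIIA and the TFIIIC subunits, which bind the internal promoters ahead of TFIIIB, gave no call in level or fraction new among 7 genes (1 and 0 at an unadjusted p-value under 0.05, edgeR and limma). Nor did 8 regulators such as casein kinase II subunits and mTOR (1 and 0).

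*TBP* also serves RNA polymerases I and II, and 26 genes of its other complexes were examined. In these, *TAF1D*, a subunit of the TBP complex of RNA polymerase I, was the single gene called, against 2.64% of all genes higher in level. Its level rose from 23.0, 21.1 and 20.5 CPM to 47.9, 44.8 and 39.9 CPM, with no overlap (log2 fold change 1.02, adjusted p = 0.00549, edgeR). The level call was lost without untreated replicate 1, 2 or 3 (0.99 to 1.08, adjusted p = 0.0591 to 0.0709) and under spike-in scaling (1.71, adjusted p = 0.0640). Its unlabeled reads rose from 14.9, 14.3 and 12.8 CPM to 34.5, 32.7 and 25.9 CPM (1.11, adjusted p = 0.00262, limma). Labeled *TAF1D* reads were 8.17, 6.73 and 7.76 CPM without and 13.4, 12.1 and 14.0 CPM with emetine. They were not called (0.77, adjusted p = 0.113, limma), and neither was its fraction new (−0.23 in logit, adjusted p = 0.680, limma). The estimates of the 26 genes had a median of 0.15, as had the 9 members, and 8 of the 26 had an unadjusted p-value under 0.05. Without emetine replicate 3, *TAF1D*, *TAF5* and *TAF7* were called higher and *DRAP1* lower, beside 10.1% and 3.87% of all genes, and the median was 0.09.

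**Figure D5:**
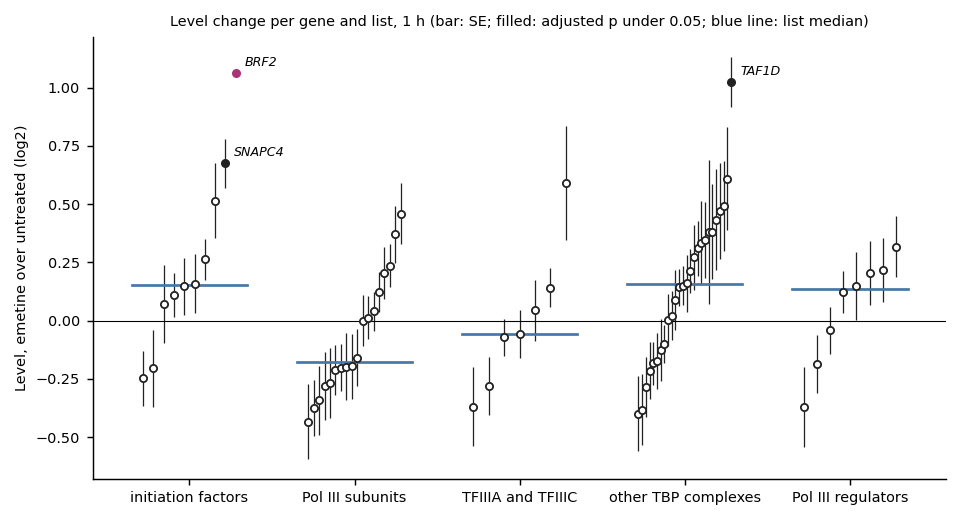
Log2 fold change in level with emetine (y axis, bars are SE) for every gene of 5 lists, sorted within each list, with the list median (*BRF2* included) as a blue line and genes past an adjusted p-value of 0.05 filled. *BRF2* (purple) carries no error bar because it was not tested, and *SNAPC4* and *TAF1D* are the filled points.

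The genes whose level pattern over the 8 libraries lay nearest to that of *BRF2*, by the root mean square difference of centred log2 CPM, were *THAP9-AS1*, *TAF1D*, *ZNF57*, *VCPKMT* and *HEY1*. Their distances were 0.098 to 0.13 among the 10712 genes that had 100 or more reads in all 8 libraries. With emetine their log2 fold changes were 0.88 to 1.16. Values near that of *BRF2* follow from the choice, which used the levels in these same libraries. Their fraction new was 67.9%, 35.1%, 89.3%, 64.6% and 56.5% in untreated cells, in the same order, and 52.2%, 30.0%, 51.3%, 49.3% and 44.4% with emetine. *TAF1D* was thus near to *BRF2* in its level pattern, but not in its fraction new in untreated cells. With emetine its fraction new was the closest of these genes to that of *BRF2* (35.1 ± 1.44%).

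In the 2 h experiment, 9 of the 10 members had a value among 9982 genes, and *SNAPC2* was not analysed here at 2 h. The value is the authors' mean of normalized counts over all 2 h libraries, in both treatments and without treatment, so it shows no effect of emetine. *BRF2* had 389 and *BRF1* 396, or 152 and 108 per kb of canonical transcript. *BDP1* had 6876 (623 per kb), more than 96.7% of the genes listed, and was thus the highest member per length there, whereas it was the lowest in the 1 h libraries. *MAF1* (535 per kb), *SNAPC3* (356), *TBP* (327), *SNAPC5* (317), *SNAPC1* (302) and *SNAPC4* (155) lay between *BDP1* and *BRF2*. The 1 h libraries were made with an mRNA kit and the 2 h libraries with a total RNA kit, and the part of this in the different order was not tested.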

How the data were processed

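The authors trimmed reads with cutadapt, mapped them to hg38 with hisat-3n and tabulated T positions and T-to-C conversions per read with bam2bakR. The deposited 1 h table holds read counts without normalization. It was summed per gene, with 8 libraries grouped by their labels. The 2 h tables hold fold changes, standard errors and p-values of the authors' own comparisons, which were not used, and 1 signal column made by the authors with htseq-count and DESeq2, the mean of counts normalized to ERCC spike-in reads, which was used as deposited. Spike-in size factors at 2 h were not used here.

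Genes with over 100 counts in the 6 s4U libraries were tested for level with edgeR 4.0.16 (TMM, quasi-likelihood test, R 4.3.3). The fraction new was the weight of a 2-component binomial mixture fitted per gene and library (Python 3.11.15, scipy 1.17.1), with background rates from the libraries without s4U. Its logit, and log2(CPM + 0.5) of labeled and unlabeled reads, were tested with limma 3.58.1 where every s4U library had 100 or more reads. p-values were adjusted over all genes by the Benjamini-Hochberg method, with a threshold of 0.05, and all tests were two-sided. The bakR package of the study was not run. The edgeR fit of level, the mixture weights and the limma fit of the fraction new were tested on simulated data. The fits of labeled and unlabeled reads and the s4U comparison were not. No molecular identifiers are described, so intervals cover counting error only. No read was given jointly to a member and another gene.

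The members, lists and tests were chosen with earlier results of these data known. All members are named, along with up to 4 called genes of each other list and the 5 genes nearest to *BRF2*. List genes called only in an alternative were named after their values were seen. Alternatives covered DESeq2 1.42.0, normalization, filters, conversion rates, pseudocounts, a replicate block and leaving out each library.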

Additional observations from a re-analysis of the deposited data

How the results depend on the processing

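With all 6 libraries, *SNAPC4* was called in level under DESeq2's Wald test, DESeq2 size factors, both other count filters and the fit to all 8 libraries, but not under spike-in scaling, where 0 of the 9 other members were called (*SNAPC4* 1.36, adjusted p = 0.139, edgeR). That scaling also moved *BRF2* to a log2 fold change of 1.72, *MAF1* to 0.43, *SNAPC2* to 0.45 and the s4U estimate of *TBP* to 0.0080. It shifts all estimates of a comparison together. For emetine the shift was upward, as the mean spike-in share was 0.460% with emetine and 0.625% without in the s4U libraries. What set these shares was not tested. Replicate numbers are shared between the groups, but deviations of same-numbered libraries correlated at 0.084, 0.019 and −0.118, so the numbers do not pair the libraries. With a replicate block, 0 members were called in level (*SNAPC4* 0.67, adjusted p = 0.0660, edgeR) and 0 in unlabeled reads (0.80, adjusted p = 0.0594, limma). The block leaves fewer degrees of freedom and changed no other call of a member, and over all genes the higher calls in level went from 363 to 75. Among the list genes, the call of *CRCP* in unlabeled reads was also lost with the block (0.58, adjusted p = 0.0966, limma). Centring on library medians gave 1 member lower in fraction new. With 2 or more conversions as the mark of labeled reads, unlabeled reads gave 1.72 for *BRF2* and 0.045 for *SNAPC5*.

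Leaving out 1 library at a time, called members ranged from 0 to 3 higher in level, 0 to 3 lower in fraction new, 0 to 3 lower in labeled reads and 1 to 2 higher in unlabeled reads. The 3 members called lower in labeled reads without untreated replicate 1 were *BRF1*, *TBP* and *MAF1* (−0.55, −0.53 and −0.61, adjusted p = 0.0474, 0.0469 and 0.0267, limma), where 15.6% of all genes were also lower. Estimates that took both signs were those of *SNAPC5* in level (−0.085 to 0.18), *BDP1* (−0.27 to 0.00027) and *SNAPC3* (−0.0038 to 0.22) in fraction new, *SNAPC1* (−0.23 to 0.085) and *SNAPC4* (−0.11 to 0.23) in labeled reads, and *SNAPC2* (−0.21 to 0.068), *SNAPC3* (−0.0016 to 0.24) and *SNAPC5* (−0.13 to 0.15) in unlabeled reads. In the s4U comparison they were *BDP1* (−0.33 to 0.29), *MAF1* (−0.040 to 0.068), *SNAPC2* (−0.25 to 0.031) and *SNAPC4* (−0.011 to 0.067), where a lone library without s4U is assumed to vary like the others. *BRF2* ranged from 1.00 to 1.14 in level, −1.59 to −1.22 in fraction new, 1.91 to 2.16 in unlabeled and −0.03 to 0.23 in labeled reads. The cause of these shifts was not tested. Counting intronic reads was not run, because the gene-body column assigns no read to a gene. *SNAPC5* had the fewest reads of the members, 139 to 228 in the untreated s4U libraries.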
